A study of Homo sapiens with 8 samples.

Results

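The gene expression of DMSO-treated THP-1 cells was compared with that of DMSO-treated HL-60 cells, 2 human acute myeloid leukemia lines grown in culture. The members were the 4 arrays titled DMSO treated HL60 or DMSO treated THP-1, 2 per line, of 8 arrays in all, and the probe sets compared were the 22215 of 22277 that are not Affymetrix controls. The HL60 group was labelled as promyelocytic leukemia cells that received DMSO, the drug's solvent, for 48 h, and the THP-1 group, labelled as monocytic leukemia cells, received the same solvent for the same time. Both groups grew in the same serum-supplemented medium, each line is 1 established culture that stands for 1 patient's leukemia, and the titles call the 2 arrays of a group biological replicates. The other 4 arrays came from the same lines after 48 h with 100 µM diclofenac, an anti-inflammatory cyclooxygenase inhibitor. They lent their spread to the test and were used once as separate samples of the lines.

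Both lines stand for immature myeloid cells that can be driven to mature in culture. HL-60 is known as a promyelocyte-like line that fills azurophil granules with myeloperoxidase and serine proteases, can become granulocyte-like or macrophage-like, and carries extra copies of the growth regulator MYC. THP-1 is known as a monocyte-like line that carries a fusion of KMT2A with MLLT3 and becomes macrophage-like on stimulation. A primary granule is the protease-rich store formed at the promyelocyte stage, whereas scavenger receptors and class II antigen presentation are features of monocytes and macrophages.

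All values are deposited probe set intensities, and a difference is the mean of THP-1 minus that of HL60 in log2 units after quantile normalization of log2(intensity + 50), with its standard error (SE) and n = 2 arrays per group. A probe set was called when its limma p adjusted over all probe sets was under 0.05, and each gene was read from 1 probe set. A gene was above background on an array when it exceeded the 95th percentile of the 27 bacterial control probe sets there. THP-1 DMSO replicate 2 stood apart. Its background was 238.63, against 33.23 to 60.2 on the other 7 arrays, its median intensity was 241.2 against 109.6 to 150.3, and its correlation with replicate 1 across probe sets was 0.898 against 0.977 to 0.984 for the other 3 pairs. Genes that are dim in THP-1 therefore often read higher on replicate 2 than on replicate 1 and yet below its own background, and a difference is given again without this array where its size on the log2 scale moved by over 1.5 times or its call was lost, and for many of the genes described in full. Without replicate 2, THP-1 DMSO is 1 array. A p-value of that fit takes its spread from the other groups and measures none within THP-1 DMSO. With all arrays, each SE and p-value rests on 1 spread per probe set pooled over the 4 groups. The median size of the log2 difference between paired arrays was 0.451 for THP-1 DMSO and 0.156 to 0.203 for the other 3 pairs. The pooled spread can therefore understate that of THP-1 DMSO. In bulk RNA, a gene used by fewer cells and a gene with less RNA in each cell cannot be told apart.

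The labels were set against defining markers first. MPO, the myeloperoxidase of primary granules that defines promyelocytic cells, read 41.7 and 40.6 on the HL60 arrays and 201.4 and 235.6 on the THP-1 arrays. It was above background on neither HL60 array, which goes against the label of that group, and only THP-1 replicate 1 was above its background. The difference was 1.29 ± 0.37 (adjusted p = 0.0502), just short of a call with all arrays, and 1.64 without replicate 2. A second MPO probe set read 8 and 2.3 on the HL60 and 92.7 and 179.1 on the THP-1 arrays. Its difference of 1.41 was called. Of the other 8 promyelocyte markers measured, all were above background on both HL60 arrays and 6 on both THP-1 arrays, CEBPE on 1 THP-1 array and CST7 on neither. ELANE, neutrophil elastase, read 12445.6 and 12838.1 on the HL60 and 17063.7 and 12169.4 on the THP-1 arrays. CTSG, cathepsin G, read 14181.8 and 14030.1 on the HL60 and 13192.1 and 8333.8 on the THP-1 arrays. MYC read 2741.5 and 2640.5 on the HL60 and 3342.6 and 2597.2 on the THP-1 arrays, a difference of 0.23 ± 0.10 (adjusted p = 0.19) that did not pass the test. CD14, the monocyte coreceptor for bacterial lipopolysaccharide, read 6.7 and 4.1 on the HL60 and 55.6 and 45.2 on the THP-1 arrays and was above background on THP-1 replicate 1 only. LYZ, lysozyme, read 13604.4 and 13762.5 on the HL60 and 14975.6 and 9230.5 on the THP-1 arrays, with the groups interleaved and a difference of -0.16 ± 0.12 (adjusted p = 0.44). Of 11 monocyte markers measured, 1 was called higher and 2 lower in THP-1. Of 9 promyelocyte markers, 4 were called higher and 2 lower. The groups are therefore called the HL60 and THP-1 arrays by their labels, and no other cell name is given to them.

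In all, 1680 probe sets were called higher in THP-1, which is 7.56% of those tested, and 1716 lower, which is 7.72%. Without replicate 2 the counts were 2125 (9.57%) and 1996 (8.98%), and 1467 and 1538 of the first calls were made again. Centring each array on its median in place of quantile normalization left 426 higher and 719 lower, so that the share of calls that were higher was 37.2% against 49.5%. Over 11963 named genes, 1111 were called higher (9.29%) and 1114 lower (9.31%), and without replicate 2 the counts were 1361 (11.4%) and 1308 (10.9%). Differences over 2-fold made up 566 and 674 of these calls. The median difference over all genes was 0.03, and 0.18 on the deposited scale. Of the 181 named genes, 164 were called, 74 of these kept the call in all alternatives of processing and 93 in all but a fit of the 4 DMSO arrays alone and a test against a minimum difference of 1 unit.

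LAPTM4B, a lysosomal membrane protein, read 23.4 and 10.7 on the HL60 and 10188.6 and 7424.1 on the THP-1 arrays. It was at least 91.4-fold higher in THP-1, where the HL60 arrays gave only a bound, and the difference was 7.13 ± 0.18 (adjusted p = 3.9e-07). Such bounds set the bright group's mean against the higher of the dim probe's own signal and its array's background. HMGN3, a nucleosome-binding protein, read 46.7 and 54.1 on the HL60 and 11363.8 and 7724.5 on the THP-1 arrays and differed by 6.67 ± 0.15 (adjusted p = 2.3e-07). The arrays of the lines were far apart for both genes. TKTL1, a transketolase-like protein, was at least 44.9-fold higher, at 8 and 7.4 on the HL60 and 5265.2 and 3554.7 on the THP-1 arrays. GSTM3, a glutathione transferase, read 65.9 and 80.4 on the HL60 and 9587.1 and 6931.5 on the THP-1 arrays, a difference of 6.20 ± 0.18 (adjusted p = 6.7e-07). CA2, a carbonic anhydrase that handles carbon dioxide and acid, was at least 45.4-fold higher in THP-1. The rest of the 10 largest were YBX3, COCH, CD81, MEST and NAV3, with differences from 4.86 for NAV3 to 6.07 for YBX3. None of them had overlapping groups. Choosing genes by the size of a called difference favours such separation, here and in the lists below, so it adds no support.

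In the other direction, CST7, cystatin F, an inhibitor of granule and lysosomal proteases, read 10718.1 and 11081.7 on the HL60 and 21.6 and 201.1 on the THP-1 arrays. CLEC2B, a C-type lectin that engages a natural killer cell receptor, read 9791.3 and 10488.6 on the HL60 and 15.7 and 155 on the THP-1 arrays. Both were bright on each HL60 array and above background on no THP-1 array, at least 89.9-fold and 82.2-fold lower there, with adjusted p-values of 3.3e-06 and 1.9e-06. MMP1, an interstitial collagenase, read 5072.2 and 4751 on the HL60 and 25.7 and 101 on the THP-1 arrays and was at least 38.6-fold lower. CCL2, the chemokine that recruits monocytes through CCR2, read 2999.9 and 2682.7 on the HL60 and 2.6 and 43.3 on the THP-1 arrays and was at least 22.5-fold lower. The HL60 arrays alone showed these transcripts above background. GPNMB, a glycoprotein of lysosome-rich cells, read 9269.9 and 9991.5 on the HL60 and 251.2 and 353.3 on the THP-1 arrays, a difference of -5.01 ± 0.11 (adjusted p = 2.0e-07). BCL2A1, a relative of BCL2 that opposes apoptosis, differed by -5.35 ± 0.11 (adjusted p = 2.0e-07), and the 10 lowest were completed by S100P, IL32, TPSB2 and NXF3, from -4.83 to -5.35. Each of these 20 genes kept its call in all 19 alternatives of processing. Without replicate 2 the 10 higher genes lay between 4.82 for MEST and 7.26 for LAPTM4B, and the 10 lower genes between -7.34 for CLEC2B and -3.91 for NXF3. S100P and NXF3 were the 2 that this omission brought clearly nearer to 0, S100P to -4.67.

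**Figure D1:**
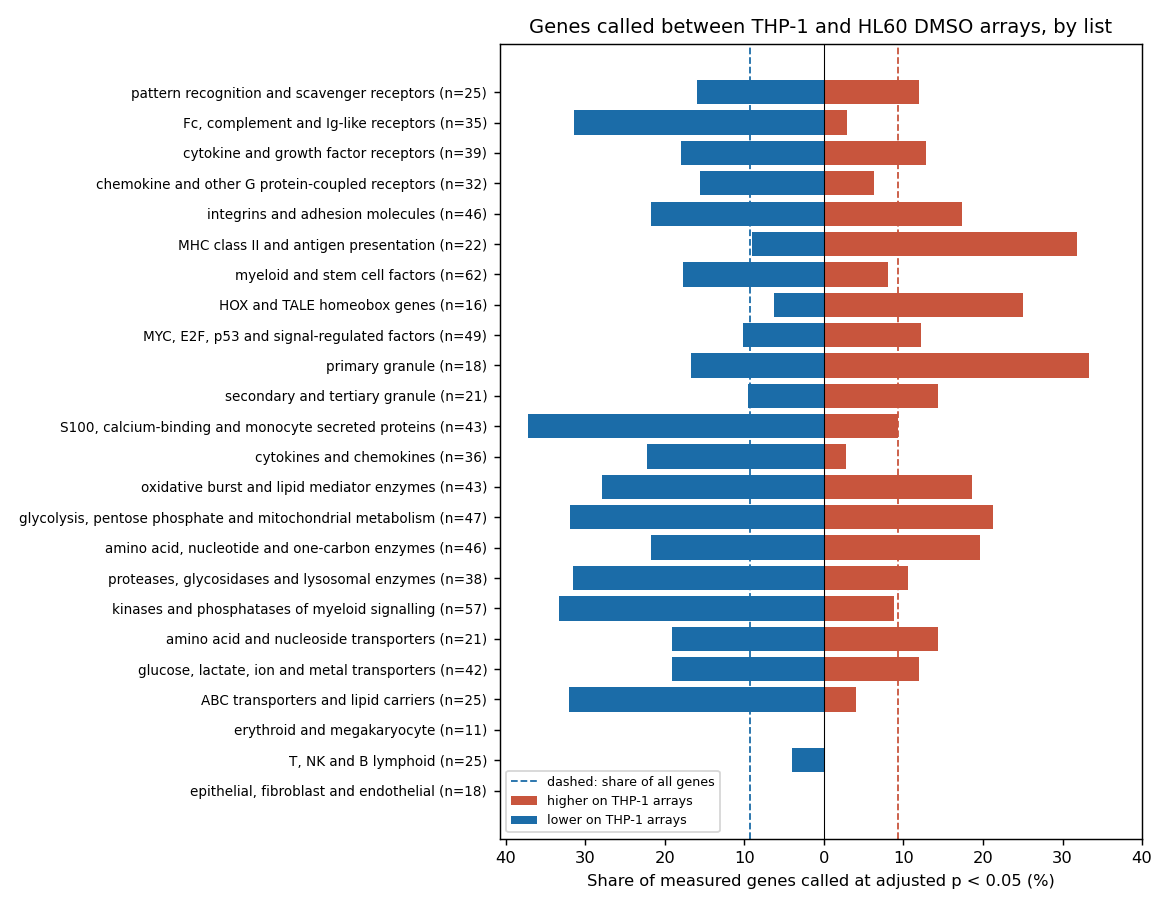
Share of the measured genes of each list, in percent, that was called higher (red, to the right) or lower (blue, to the left) on the THP-1 than on the HL60 arrays with DMSO at an adjusted p under 0.05. Dashed lines mark 9.29% and 9.31%, the shares of all genes. The longest bars to the right belong to primary granule and class II presentation genes, and the longest to the left to the S100 and secreted proteins.

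Surface receptors were called in 65 of 199 measured genes, 26 higher and 39 lower in THP-1, or 32.7% against 18.6% of all genes. Without replicate 2 the counts were 29 and 42. Their median difference was -0.06 beside 0.03 for all genes. The share called in a list is given as a description, since list members were chosen with earlier results of these data known. All genes also include 1655 of 11963 above background on no DMSO array, against 14 of these 199, so the shares come from unlike sets. Some lists below lay near the share of all genes. These were chemokine and other G protein-coupled receptors (21.9%), MYC, E2F and signal-regulated factors (22.4%) and secondary and tertiary granule genes (23.8%). Genes given by a difference alone were called unless said otherwise.

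Among pattern recognition and scavenger receptors, 3 of 25 were higher and 4 lower. CD36, the scavenger receptor that takes up oxidised lipoprotein and fatty acids, read 3124 and 3549.7 on the HL60 and 92.2 and 285.3 on the THP-1 arrays. CLEC5A, a lectin that signals in myeloid cells, read 2290.1 and 2364.8 on the HL60 and 41.3 and 285.4 on the THP-1 arrays. Both HL60 arrays lay far above both THP-1 arrays for these genes. The differences were -4.16 ± 0.16 (adjusted p = 3.3e-06) for CD36 and -3.98 ± 0.37 (adjusted p = 1.8e-04) for CLEC5A, and -4.53 and -4.66 without replicate 2. FPR2, a formyl peptide receptor, was also lower (-1.93). LY86, the partner of the lipopolysaccharide sensor-like protein CD180, and SCARB1, which takes up cholesterol from high-density lipoprotein, were higher at 0.91 and 1.06. Centring ended the calls of LY86 and SCARB1. CD93, a phagocytosis-linked lectin-like receptor, gave opposite answers by probe set. The probe set with the higher mean read 465.4 and 403.8 on the HL60 and 672.4 and 1004.7 on the THP-1 arrays, a difference of 0.92 ± 0.26 (adjusted p = 0.044) that was lost without replicate 2 (adjusted p = 0.12), and a second probe set read 2651.4 and 2501.9 on the HL60 and 191.3 and 62.4 on the THP-1 arrays and differed by -4.26 (adjusted p = 6.8e-04). TLR5, the flagellin sensor, was called lower (-1.01 ± 0.29 (adjusted p = 0.048)) but not without replicate 2 (adjusted p = 0.063), and TLR2, the sensor of bacterial lipoproteins, differed by 0.62 ± 0.22 (adjusted p = 0.098).

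Of 35 Fc, complement and Ig-like receptors, 1 was higher and 11 lower, with a median of -0.66. FCAR, the receptor for immunoglobulin A, read 1279.5 and 1374.5 on the HL60 and 56.3 and 242.3 on the THP-1 arrays, a difference of -3.20 ± 0.23 (adjusted p = 5.2e-05) and -3.62 without replicate 2. SIGLEC7, an inhibitory receptor for sialic acid, read 629.2 and 578.2 on the HL60 and 63.8 and 78.3 on the THP-1 arrays, a difference of -2.66 ± 0.40 (adjusted p = 0.0024). Neither gene had overlapping groups. CD244, SIGLEC5, LILRB2, SIRPA, FCER1G, CD48, CD300C, C5AR1 and FCGRT completed the lower genes, at -2.09 for CD244, a receptor for CD48, and -1.52 for CD48 itself. SIRPA, an inhibitory receptor of myeloid cells, was at -1.58, at -0.77 without replicate 2 and at -2.38 without THP-1 replicate 1. The signalling gamma chain FCER1G was at -1.53 and the complement C5a receptor C5AR1 at -1.36. LAIR1, an inhibitory collagen receptor, was the 1 higher gene, at 1916.1 and 2059.8 on the HL60 and 2764.2 and 2560.9 on the THP-1 arrays, a small difference of 0.51 ± 0.11 (adjusted p = 0.017) that was lost in 8 of 19 alternatives. FCGR1A, the high-affinity receptor for immunoglobulin G, read 29.6 and 26 on the HL60 and 46.6 and 254.4 on the THP-1 arrays and did not pass the test. The SIGLEC5 sequence is close to that of SIGLEC14, and their signals may not be separate.

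**Figure D2:**
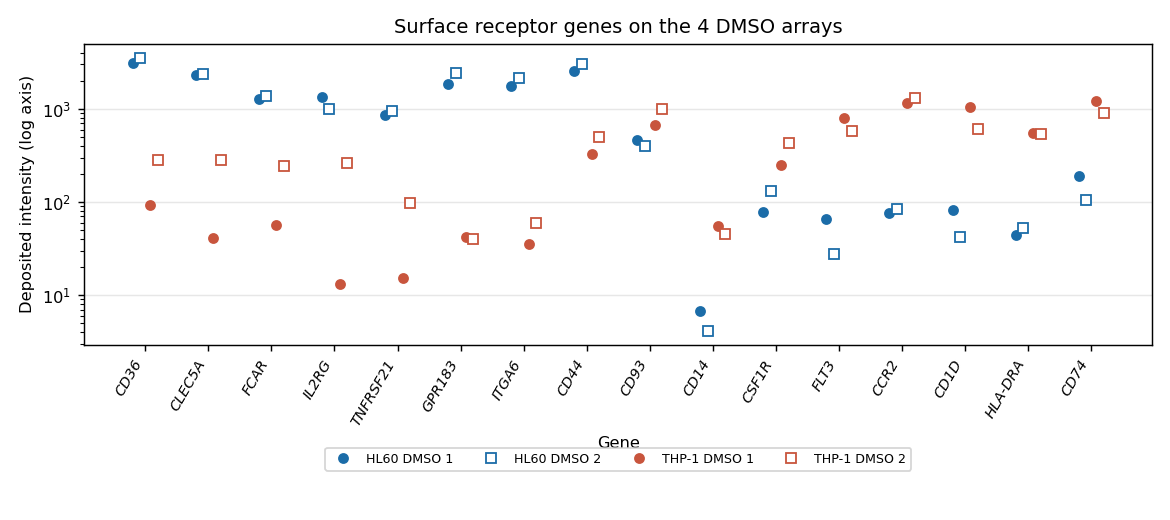
Deposited intensity (log axis) of 16 surface receptor and antigen presentation genes on the 4 DMSO arrays, blue for HL60 and red for THP-1, circles for replicate 1 and open squares for replicate 2. CD36 to CD44 are high on both HL60 arrays, and FLT3 to CD74 are high on both THP-1 arrays. For dim genes such as IL2RG and TNFRSF21 the 2 THP-1 arrays spread widely.

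Cytokine and growth factor receptors had 5 higher and 7 lower of 39. FLT3, a receptor kinase of myeloid progenitors that is often mutated in leukemia, read 65.2 and 28 on the HL60 and 808.2 and 585.6 on the THP-1 arrays, a difference of 2.93 ± 0.33 (adjusted p = 5.3e-04) and 3.30 without replicate 2. CSF1R, the receptor that sustains monocytes and macrophages, read 78.6 and 132.8 on the HL60 and 252.2 and 426.3 on the THP-1 arrays. Both genes were higher on each THP-1 array than on each HL60 array. The CSF1R difference of 1.24 ± 0.35 (adjusted p = 0.045) was no longer called without replicate 2 (adjusted p = 0.068). IL2RG, the common gamma chain of interleukin receptors, read 1325.8 and 992 on the HL60 and 13.3 and 265.6 on the THP-1 arrays, a difference of -3.33 ± 0.45 (adjusted p = 0.0015). TNFRSF21, a death receptor, read 851.8 and 950.8 on the HL60 and 15.3 and 97.9 on the THP-1 arrays and was at least 7.34-fold lower. On replicate 2, IL2RG was just above background and TNFRSF21 below it. PLXNC1, a semaphorin receptor, and CSF2RA, the alpha chain of the granulocyte-macrophage colony-stimulating factor receptor, were lower at -2.45 and -1.76. IL6R and IL10RB were higher by less than 1 unit, at 0.62 and 0.54, and centring ended both calls. A second IL6R probe set differed by -0.33 and was not called. KIT, the stem cell factor receptor, was above background on no DMSO array, with 32.7 and 48.4 on the HL60 and 10.2 and 42.1 on the THP-1 arrays.

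Chemokine and other G protein-coupled receptors had 2 higher and 5 lower of 32. CCR2, the receptor that CCL2 binds, read 76.3 and 85.2 on the HL60 and 1167.8 and 1319.2 on the THP-1 arrays, a difference of 3.39 ± 0.24 (adjusted p = 4.6e-05). A second, dimmer CCR2 probe set differed by 0.36 and was not called. So the ligand CCL2 was above background on the HL60 arrays alone, and its receptor CCR2 was brighter on the THP-1 arrays. ADORA2B, an adenosine receptor, was higher at 2.52 (2.29 without replicate 2). GPR183, an oxysterol receptor that guides migration, read 1849.3 and 2445 on the HL60 and 42.5 and 39.9 on the THP-1 arrays, a difference of -4.80 ± 0.30 (adjusted p = 2.5e-05). CXCR4, the receptor that holds blood progenitors in the marrow, read 7633.6 and 9167.7 on the HL60 and 4087.6 and 3181.3 on the THP-1 arrays. It was bright on all 4 arrays and about 1 unit lower in THP-1 (-1.12 ± 0.09 (adjusted p = 9.8e-05)), a call that centring ended. ADGRE5, an adhesion receptor, was lower at -1.11, a value that ranged from -0.62 without THP-1 replicate 1 to -1.65 without replicate 2 and a call lost in 10 of 19 alternatives. PTAFR, the platelet-activating factor receptor, was lower at -1.34 but was not called without replicate 2 (adjusted p = 0.064).

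Among integrins and adhesion molecules, 8 of 46 were higher and 10 lower. ITGA6, the laminin-binding integrin alpha chain, read 1773.1 and 2147.2 on the HL60 and 35 and 59.4 on the THP-1 arrays, a difference of -4.64 ± 0.22 (adjusted p = 6.6e-06) and -4.53 without replicate 2. CD44, the hyaluronan receptor, read 2546.8 and 3065.8 on the HL60 and 325.2 and 497.9 on the THP-1 arrays, a difference of -2.69 ± 0.13 (adjusted p = 8.0e-06). The HL60 arrays were several times brighter for both. CD69, an early activation antigen, was at least 3.53-fold lower in THP-1. ITGA4, ITGA5 and PECAM1 were lower at -1.69, -1.83 and -1.36, and that of ITGA5 was -0.85 without replicate 2 and -2.80 without THP-1 replicate 1. The call of ITGA5 was lost in 12 of 19 alternatives. THBD, thrombomodulin, a cofactor that turns thrombin against clotting, read 475.1 and 519.3 on the HL60 and 1848.5 and 1511.8 on the THP-1 arrays, a difference of 1.75 ± 0.12 (adjusted p = 3.3e-05). BST1, an enzyme that makes cyclic ADP-ribose, read 411.8 and 388.1 on the HL60 and 957.1 and 1278.9 on the THP-1 arrays, a difference of 1.46 ± 0.21 (adjusted p = 0.0023). Centring ended the calls of THBD and BST1. CD38, a relative of BST1, was higher too (1.09), and so was CD59, an inhibitor of complement attack (1.31, lost in 11 of 19 alternatives). ITGB7 was not called without replicate 2 (adjusted p = 0.062). ITGAM and ITGAX, the alpha chains of the main beta-2 integrins of myeloid cells, differed by -0.34 ± 0.26 (adjusted p = 0.43) and -0.36 ± 0.53 (adjusted p = 0.71) and were not called. CD34, the stem cell antigen, was not called either, at 88.5 and 91.7 on the HL60 and 71.2 and 155.3 on the THP-1 arrays.

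Antigen presentation genes had 7 higher and 2 lower of 22. HLA-DRA, the alpha chain of the class II molecule HLA-DR, read 44.1 and 52.2 on the HL60 and 554.4 and 539.3 on the THP-1 arrays, a difference of 2.55 ± 0.32 (adjusted p = 9.7e-04) and 2.75 without replicate 2. CD74, the invariant chain that escorts class II molecules, read 191.6 and 104.7 on the HL60 and 1207.5 and 913.5 on the THP-1 arrays, a difference of 2.52 ± 0.22 (adjusted p = 1.5e-04). Each THP-1 array was several times brighter than each HL60 array for both. HLA-DRB1 and HLA-DPB1, beta chains of class II molecules, were higher at 2.08 and 1.68, while none of the HLA-DQ, HLA-DM and HLA-DO genes measured was called. CD1D, which presents lipids, read 82.9 and 42.5 on the HL60 and 1048.7 and 603.2 on the THP-1 arrays, a difference of 2.90 ± 0.31 (adjusted p = 3.9e-04). TAP2, a chain of the peptide transporter for class I molecules, was higher at 2.16. Of its neighbours, PSMB9 was higher too, at 1.14 and 1.08 without replicate 2, and TAP1 and PSMB8 were not called. CIITA, the master activator of class II genes, read 206.6 and 161.9 on the HL60 and 40.2 and 108.7 on the THP-1 arrays. It went the other way, at -1.20 ± 0.33 (adjusted p = 0.043), and lost the call in 15 of 19 alternatives. B2M, the class I light chain, was bright on every array and its small difference of -0.22 ± 0.06 (adjusted p = 0.037) was not called without replicate 2 (adjusted p = 0.11). Leaving out HL60 replicate 1 or replicate 2 ended the calls of CD93, LY86, TLR5, LAIR1, CD244, CSF1R, IL6R, IL10RB, CSF2RA, PTAFR, ADGRE5, CD59, ITGB7, ITGA5, CIITA, B2M, C5AR1, CD38, CD48, HLA-DPB1, CD300C, FCGRT, LILRB2 and SIRPA in at least 1 of these fits, where their differences lay between -2.13 and 1.79. Beside the receptor and presentation genes already named for it, centring ended the calls of B2M, CD38, CD59, CD93, CIITA, CSF1R, FCGRT, ITGA5, ITGB7, LAIR1, PTAFR, SIRPA and TLR5.

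Transcription factors were called in 32 of 127 genes, 15 higher and 17 lower, or 25.2%, and without replicate 2 in 21 and 21. CEBPD, a C/EBP factor of myeloid differentiation, read 63.8 and 34.1 on the HL60 and 1753.3 and 1523.2 on the THP-1 arrays, a difference of 4.20 ± 0.31 (adjusted p = 5.2e-05) and 4.30 without replicate 2. Its relative CEBPB, which drives emergency granulopoiesis and macrophage genes, read 3298.8 and 3444.7 on the HL60 and 975.7 and 816.3 on the THP-1 arrays, a difference of -1.85 ± 0.11 (adjusted p = 1.6e-05). By these probe sets the C/EBP family was split, with CEBPD dim on the HL60 arrays and CEBPB brighter there. A second CEBPD probe set read 57.8 and 4.2 on the HL60 and 39.6 and 133.5 on the THP-1 arrays. It differed by 0.51 and was not called. CEBPA, the factor that commits progenitors to the granulocyte-monocyte path, read 2464 and 2594.7 on the HL60 and 4108.9 and 2166.8 on the THP-1 arrays, a difference of 0.31 ± 0.17 (adjusted p = 0.27) that did not pass the test. The CEBPA difference was 0.61 without replicate 2 and near 0 under centring. CEBPE, which acts late in granulocyte maturation, was not called, at -1.51 and -0.37 without replicate 2.

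IRF8, the interferon regulatory factor that steers progenitors to monocytes, read 1821.9 and 1599.8 on the HL60 and 4494.6 and 3575.2 on the THP-1 arrays, a difference of 1.32 ± 0.11 (adjusted p = 1.1e-04) whose call centring ended. ID1 and ID2, inhibitors of helix-loop-helix factors, went opposite ways, at 1.89 and -1.62. SPIB, a relative of PU.1, read 18.9 and 7.1 on the HL60 and 88.3 and 458.4 on the THP-1 arrays and was at least 2.47-fold higher, with a difference of 2.01 and 1.29 without replicate 2. KLF2 was higher (1.46) and TFEB, the regulator of lysosome genes, lower (-1.84, and -1.12 without replicate 2), both with calls lost in 10 of 19 alternatives. IRF5, a factor of inflammatory macrophages, was lower at -1.47 (-0.91 without replicate 2). SPI1, which encodes PU.1, the main regulator of myeloid fate, read 333.1 and 187.7 on the HL60 and 383.8 and 198.9 on the THP-1 arrays. Its arrays interleaved and its difference of -0.20 ± 0.49 (adjusted p = 0.83) became 0.63 without replicate 2, uncalled in both fits. With all arrays, GFI1, MYB and KLF4 were not called, at differences of -0.44, -0.24 and 0.44. The KLF4 difference was larger without replicate 2, at 0.94.

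Of 16 homeobox and partner genes, 4 were higher and 1 lower. MEF2C, a factor often high in leukemia with KMT2A fusions, read 145.4 and 88.4 on the HL60 and 1412.9 and 1159.1 on the THP-1 arrays, a difference of 3.07 ± 0.20 (adjusted p = 3.0e-05). PBX3, a partner of HOX proteins, read 490.2 and 517.4 on the HL60 and 2416.2 and 1660.8 on the THP-1 arrays, a difference of 1.98 ± 0.14 (adjusted p = 3.8e-05). Both were brighter on each THP-1 array, and their differences were 3.26 and 2.15 without replicate 2. SATB1 and MEIS2 were higher at 1.24 and 0.94, calls that centring ended. MEIS1, the HOX cofactor that KMT2A fusions are known to switch on, read 669.8 and 635.3 on the HL60 and 383.8 and 327.5 on the THP-1 arrays. It was dimmer on both THP-1 arrays, at -0.99 ± 0.26 (adjusted p = 0.037) and -0.61 without replicate 2, and lost the call in 11 of 19 alternatives. In the list of MYC, E2F and signal-regulated factors, 6 of 49 were higher and 5 lower. BATF, an AP-1 type partner factor, read 1757.6 and 1942 on the HL60 and 249 and 89.6 on the THP-1 arrays, a difference of -3.47 ± 0.53 (adjusted p = 0.0028). EPAS1, a hypoxia-inducible factor, was at -2.43 (-1.63 without replicate 2), and a second EPAS1 probe set differed by -0.56 and was not called. BACH1, the repressor of HMOX1, read 199 and 262 on the HL60 and 642.5 and 787 on the THP-1 arrays, a difference of 1.49 ± 0.22 (adjusted p = 0.0022), and ATF4, the effector of the stress response to amino acid lack, was higher at 0.91. Centring ended the calls of BACH1 and ATF4. Leaving out HL60 replicate 1 or replicate 2 ended the calls of SPIB, KLF2, TFEB, IRF5, MEIS2, MEIS1 and EPAS1 in at least 1 of these fits, where their differences lay between -2.42 and 2.07. Centring also ended the calls of IRF5, KLF2 and MEIS1.

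Granule and secreted protein genes were called in 43 of 118, 14 higher and 29 lower, or 36.4%, and without replicate 2 in 16 and 33. The primary granule list had 6 higher and 3 lower of 18. AZU1, azurocidin, an antimicrobial protease relative without enzyme activity, read 1622.3 and 1533.4 on the HL60 and 9130.3 and 7212.9 on the THP-1 arrays, a difference of 2.47 ± 0.09 (adjusted p = 2.6e-06) and 2.42 without replicate 2. PRTN3, proteinase 3, read 3632 and 4181.6 on the HL60 and 13711.5 and 9716.1 on the THP-1 arrays, a difference of 1.66 ± 0.07 (adjusted p = 4.7e-06) and 1.65. CFD, complement factor D, read 680 and 647.3 on the HL60 and 2439.3 and 1915.2 on the THP-1 arrays, a difference of 1.72 ± 0.10 (adjusted p = 2.1e-05) and 1.77. All 3 were brighter on each THP-1 array. Centring ended the calls of PRTN3 and CFD. ELANE lies between PRTN3 and CFD and differed by 0.27 ± 0.06 (adjusted p = 0.013), a call lost without replicate 2 (adjusted p = 0.079) and a sign that turned under centring.

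AZU1, PRTN3, ELANE and CFD are consecutive genes of chromosome 19 in RefSeq (GRCh38.p14), spanning positions 827837 to 863641. Their neighbours, PLPPR3 before them and MED16 after them, were not called. The 150 bases before the RefSeq start are shown for the 3 members of the cluster that differed most and were in the table, and for 3 granule or S100 genes to set beside them. ELANE and CST7 were not in that table. Capitals mark matches on either strand to TTNNGNAA (C/EBP type), GAGGAA (PU.1 type) and TGTGGT (RUNX type).
AZU1 (chr19:827687-827836, plus strand): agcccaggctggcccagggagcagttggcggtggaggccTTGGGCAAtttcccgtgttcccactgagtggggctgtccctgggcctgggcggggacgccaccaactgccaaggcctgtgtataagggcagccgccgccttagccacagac
PRTN3 (chr19:840849-840998, plus strand): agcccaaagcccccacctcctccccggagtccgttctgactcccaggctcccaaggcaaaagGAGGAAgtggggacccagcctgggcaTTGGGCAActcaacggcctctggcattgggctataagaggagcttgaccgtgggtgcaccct
CFD (chr19:859514-859663, plus strand): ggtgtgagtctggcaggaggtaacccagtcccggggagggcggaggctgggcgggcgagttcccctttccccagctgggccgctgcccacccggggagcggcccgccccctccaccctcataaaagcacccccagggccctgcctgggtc
CTSG (chr14:24576251-24576400, minus strand): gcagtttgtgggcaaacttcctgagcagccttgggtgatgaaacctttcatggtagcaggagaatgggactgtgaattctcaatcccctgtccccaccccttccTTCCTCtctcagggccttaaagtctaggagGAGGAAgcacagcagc
S100A8 (chr1:153391189-153391338, minus strand): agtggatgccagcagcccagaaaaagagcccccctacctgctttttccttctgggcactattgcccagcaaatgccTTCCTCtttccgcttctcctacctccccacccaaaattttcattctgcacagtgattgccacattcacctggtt
S100A9 (chr1:153357704-153357853, plus strand): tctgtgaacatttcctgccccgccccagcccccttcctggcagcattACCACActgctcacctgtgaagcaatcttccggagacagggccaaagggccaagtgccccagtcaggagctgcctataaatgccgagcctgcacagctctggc
AZU1 and PRTN3 both held TTGGGCAA on the gene's strand, starting at positions -111 and -62 from the start, and PRTN3 also held GAGGAA at -88. CFD held none of these letters in its window. CTSG held 2 PU.1 type matches, S100A8 held 1 and S100A9 held 1 RUNX type match. Of 35116 promoters of this length in the table, 20% held the C/EBP type letters, 14.8% those of PU.1, 6.59% those of RUNX and 52.1% AACNG, the MYB type, which AZU1 and PRTN3 each held at 2 places. A match is a description of the sequence, and no binding was measured.

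**Figure D3:**
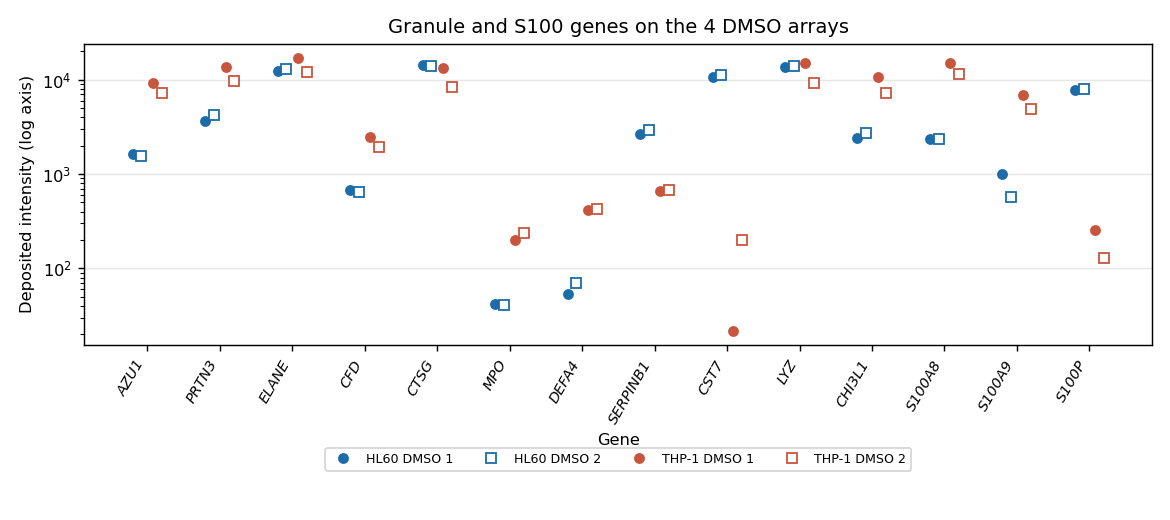
Deposited intensity (log axis) of 14 granule, S100 and secreted protein genes on the 4 DMSO arrays, blue for HL60 and red for THP-1, circles for replicate 1 and open squares for replicate 2. AZU1, PRTN3, CFD, MPO, DEFA4, CHI3L1, S100A8 and S100A9 are higher on both THP-1 arrays, CTSG, SERPINB1, CST7 and S100P on both HL60 arrays, and ELANE and LYZ interleave.

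DEFA4, a defensin, read 53.2 and 70.8 on the HL60 and 411.1 and 427.7 on the THP-1 arrays, a difference of 1.96 ± 0.34 (adjusted p = 0.0050). SERPINB1, the cytosolic inhibitor of elastase, proteinase 3 and cathepsin G, read 2637.7 and 2951.5 on the HL60 and 655 and 675.6 on the THP-1 arrays, a difference of -1.999 ± 0.10 (adjusted p = 9.5e-06). Both protease inhibitors of the list, CST7 and SERPINB1, were brighter on the HL60 arrays. CTSG was slightly lower in THP-1 (-0.35 ± 0.07 (adjusted p = 0.0073)), a call lost in 6 of 19 alternatives. Secondary and tertiary granule genes had 3 higher and 2 lower of 21. CHI3L1, a chitinase-like glycoprotein, read 2383.4 and 2690 on the HL60 and 10585.5 and 7214.4 on the THP-1 arrays, a difference of 1.89 ± 0.08 (adjusted p = 4.7e-06), and centring ended the call. ORM1, an acute phase plasma protein, was at least 3.38-fold higher; its near copy ORM2 may share the signal. MMP9, a gelatinase, was called at 0.76 but not without replicate 2 (adjusted p = 0.064). FCN1, ficolin-1, a monocyte lectin, was lower at -2.09 ± 0.51 (adjusted p = 0.027), at -2.99 without replicate 2 and -1.25 without THP-1 replicate 1, and the membrane protease MMP25 was lower at -2.02. A second MMP25 probe set differed by -0.52 and was not called.

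In the list of S100, calcium-binding and monocyte secreted proteins, 4 of 43 were higher and 16 lower, with a median of -0.36. S100A8 and S100A9, which pair as calprotectin and lie near each other on chromosome 1, read 2335.4 and 2321.8 on the HL60 and 15146.2 and 11482.5 on the THP-1 arrays for S100A8 and 988.8 and 569.4 on the HL60 and 6913.4 and 4915.8 on the THP-1 arrays for S100A9. Every THP-1 array exceeded every HL60 array. The differences were 2.61 ± 0.10 (adjusted p = 3.4e-06) and 3.01 ± 0.20 (adjusted p = 3.6e-05), and 2.57 and 3.07 without replicate 2. S100P, a relative induced in myeloid differentiation, read 7691.2 and 8021.4 on the HL60 and 255.7 and 127.3 on the THP-1 arrays, a difference of -5.35 ± 0.40 (adjusted p = 5.8e-05) in the opposite direction. S100A4, S100A6 and S100A11 were lower as well, at -1.23, -0.80 and -0.36, and S100A12 was not called (1.26).

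The cathepsins were split. CTSL read 140.7 and 76.9 on the HL60 and 1003.9 and 963.6 on the THP-1 arrays, a difference of 2.78 ± 0.22 (adjusted p = 9.5e-05). CTSD read 2227.1 and 1834.9 on the HL60 and 273.9 and 268.1 on the THP-1 arrays, a difference of -2.94 ± 0.24 (adjusted p = 1.0e-04). CTSB, CTSH and CTSZ went with CTSD, at -1.32, -2.04 and -0.55, and CTSZ was not called without replicate 2 (adjusted p = 0.076). APOC1, an apolipoprotein of macrophages, read 12.1 and 7.9 on the HL60 and 796.6 and 665.2 on the THP-1 arrays and was at least 7.3-fold higher in THP-1. LGALS3, galectin-3, differed by -2.09 ± 0.14 (adjusted p = 3.7e-05), and the annexins ANXA1 and ANXA2 were lower at -1.34 and -1.95. PPBP, a platelet chemokine, read 933.4 and 766 on the HL60 and 14.6 and 21.4 on the THP-1 arrays and was above background on the HL60 arrays alone, at least 6.98-fold brighter there.

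Cytokines and chemokines had 1 higher and 8 lower of 36. Beside CCL2, IL32, an inflammatory cytokine, read 1947.5 and 1483.3 on the HL60 and 4.7 and 41.6 on the THP-1 arrays and was at least 13.6-fold lower. CXCL8, the chemokine that draws neutrophils, read 583.7 and 404.9 on the HL60 and 29.7 and 131.6 on the THP-1 arrays and was at least 4.15-fold lower, while a second probe set, brighter on all arrays but open to cross-hybridisation by its name, differed by 0.30 and was not called. VEGFA, the vascular growth factor, read 1265.5 and 1605.9 on the HL60 and 476.8 and 153.8 on the THP-1 arrays, with the 2 THP-1 arrays apart from each other and a difference of -2.47 ± 0.54 (adjusted p = 0.017), or -1.44 without replicate 2. Further VEGFA probe sets above background differed by only -0.23, -0.46 and -0.89, and of these the last alone was called. IL18, CCL23, IL16 and TGFB1 were lower at -2.34, -2.28, -1.56 and -0.99, with CCL23 at -1.28 without replicate 2. MIF was the 1 higher gene at 0.27, not called without replicate 2 (adjusted p = 0.054), and its sign turned under centring. Leaving out HL60 replicate 1 or replicate 2 ended the calls of CTSG, MMP9, FCN1, MMP25, MIF, VEGFA, ELANE, CCL23, CTSZ, IL16, IL18, S100A11 and TGFB1 in at least 1 of these fits, where their differences lay between -2.63 and 0.90. Centring also ended the calls of CTSB, CTSG, CTSZ, MMP9, S100A4, S100A6, S100A11 and TGFB1.

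Enzymes were called in 104 of 231 genes, 36 higher and 68 lower, or 45%, and without replicate 2 in 37 and 75. Among enzymes of the oxidative burst, detoxification and lipid mediators, 8 of 43 were higher and 12 lower. HMOX1, heme oxygenase, read 1739.1 and 1833.6 on the HL60 and 141.1 and 112.2 on the THP-1 arrays, a difference of -3.61 ± 0.29 (adjusted p = 9.4e-05) and -3.20 without replicate 2. CYP1B1, a cytochrome P450, read 31.5 and 6 on the HL60 and 1380.8 and 996.6 on the THP-1 arrays and was at least 11.9-fold higher in THP-1. Each was above background on every array of its brighter line. GSTM1 read 278.9 and 138.5 on the HL60 and 2142.5 and 2229 on the THP-1 arrays, a difference of 3.25 ± 0.25 (adjusted p = 6.5e-05). On chromosome 1, GSTM4, GSTM2, GSTM1 and GSTM3 were all called higher, at 2.55, 3.88, 3.25 and 6.20, and GSTM5 was not called. These near-identical genes can share probes, so which of them differed is uncertain. CYBA, the small membrane chain of the phagocyte oxidase, was higher at 1.27 ± 0.07 (adjusted p = 1.2e-05), a call that centring ended, and CYBB, its catalytic partner, was not called at -1.46 ± 0.45 (adjusted p = 0.062). NCF4, a cytosolic subunit, was lower at -1.64. TBXAS1, thromboxane synthase, was at least 3.04-fold lower, and PTGS1, LTA4H and ALOX5AP of the prostaglandin and leukotriene pathways were lower at -1.27, -0.70 and -0.55, with PTGS1 at -1.93 and ALOX5AP at -0.34 without replicate 2 and PTGS1 at -0.70 without THP-1 replicate 1. GSR and MGST3, of the glutathione system, were lower at -2.09 and -2.001.

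In glycolysis, pentose phosphate and mitochondrial metabolism, 10 of 47 genes were higher and 15 lower. PKM, the pyruvate kinase of most tissues, read 7186.9 and 7144.8 on the HL60 and 1829.5 and 1354.4 on the THP-1 arrays, a difference of -2.09 ± 0.13 (adjusted p = 2.6e-05). PDK1, which restrains pyruvate dehydrogenase, read 911.8 and 810.5 on the HL60 and 70.7 and 47.8 on the THP-1 arrays, a difference of -3.30 ± 0.38 (adjusted p = 5.9e-04). The HL60 arrays were brighter throughout for both. HK1, the first enzyme of glycolysis, was at -3.03 (-2.21 without replicate 2), and HK2, GPI, ALDOA, PGK1 and ENO1 were lower by less than 1 unit, from -0.89 for PGK1 to -0.35 for ALDOA, of which ALDOA was not called without replicate 2 (adjusted p = 0.072). PFKM, the muscle-type phosphofructokinase, went the other way, at 135.8 and 99.3 on the HL60 and 899 and 965.4 on the THP-1 arrays, a difference of 2.61 ± 0.22 (adjusted p = 1.2e-04). ME1, the malic enzyme that makes NADPH, read 48 and 19.8 on the HL60 and 1077.1 and 1145.7 on the THP-1 arrays and was at least 11.5-fold higher in THP-1. The lipid synthesis genes SCD and ACLY were higher at 0.98 and 0.53, whereas CPT1A, which admits fatty acids to mitochondria for burning, and ACSL1 were lower at -2.11 and -1.31. Further CPT1A probe sets above background differed by -0.48, -1.02 and -0.72, and none of these was called. SDHA and CS of the citric acid cycle were higher at 1.09 and 0.69. Centring ended the calls of SCD, ACLY, SDHA, CS, HK2, GPI, ALDOA, PGK1 and ENO1.

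Amino acid, nucleotide and one-carbon enzymes had 9 higher and 10 lower of 46. GATM, which makes the precursor of creatine, read 54.6 and 51.9 on the HL60 and 1144.3 and 1891.9 on the THP-1 arrays, a difference of 3.9999 ± 0.34 (adjusted p = 1.3e-04). ASS1, the arginine-making enzyme, read 1522 and 1735.6 on the HL60 and 5590.1 and 4353 on the THP-1 arrays, a difference of 1.71 ± 0.10 (adjusted p = 1.7e-05) whose call centring ended. SAMHD1, which breaks down deoxynucleotides, read 11.4 and 51.1 on the HL60 and 436.9 and 496.2 on the THP-1 arrays, a difference of 2.60 ± 0.38 (adjusted p = 0.0024). Each of the 3 was higher on both THP-1 arrays. CDA, cytidine deaminase, read 1019.2 and 1006.9 on the HL60 and 63.6 and 47.2 on the THP-1 arrays, a difference of -3.56 ± 0.47 (adjusted p = 0.0013), and ADA, adenosine deaminase, read 2142.1 and 2109.7 on the HL60 and 396.6 and 367.5 on the THP-1 arrays, a difference of -2.49 ± 0.20 (adjusted p = 9.6e-05). Both deaminases were brighter on the HL60 arrays. SAT1, which acetylates polyamines for export, was lower at -1.66. PHGDH and PSPH of serine synthesis were higher at 0.95 and 0.73, calls that centring ended, and BCAT1 was not called without replicate 2 (adjusted p = 0.059).

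Proteases, glycosidases and lysosomal enzymes had 4 higher and 12 lower of 38. ASAH1, the lysosomal ceramidase, read 5831.9 and 6011.1 on the HL60 and 862 and 799.6 on the THP-1 arrays, a difference of -2.75 ± 0.11 (adjusted p = 3.4e-06) and -2.74 without replicate 2. CAPG, an actin-capping protein of macrophages, differed by -2.51 ± 0.13 (adjusted p = 9.5e-06), and ADAM9, a membrane sheddase, by -1.74 ± 0.14 (adjusted p = 1.0e-04). NEU1, GLA, HEXA and LIPA, hydrolases of lysosomes, were lower at -1.37, -1.27, -0.83 and -0.51. ACP2, a lysosomal acid phosphatase, went the other way and was at least 3.74-fold higher. CPM, a membrane carboxypeptidase of macrophages, read 305 and 249.2 on the HL60 and 1195.3 and 1007.4 on the THP-1 arrays, a difference of 1.86 ± 0.17 (adjusted p = 2.0e-04). A second, dimmer CPM probe set differed by -0.60 and was not called. MMP14 and CASP1 were higher at 1.78 and 0.64, and CASP1 lost the call in 11 of 19 alternatives. Further MMP14 probe sets above background differed by -0.059, 0.17 and 0.65, and none of these was called.

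Kinases, phosphatases and cell cycle regulators had 5 higher and 19 lower of 57. FYN and FGR, both SRC family kinases, went opposite ways. FYN read 224.2 and 171.9 on the HL60 and 1036.8 and 1088.9 on the THP-1 arrays, a difference of 2.22 ± 0.20 (adjusted p = 1.5e-04). FGR, the myeloid member, read 797 and 544.6 on the HL60 and 92.3 and 56 on the THP-1 arrays, a difference of -2.76 ± 0.39 (adjusted p = 0.0019). PRKCA, a protein kinase C, was at least 4.43-fold higher, and its relative PRKCB was lower at -1.70. A second PRKCA probe set differed by 0.56 and was not called. The pseudokinases TRIB1 and TRIB2 also differed in direction, at 1.79 and -2.53. CDKN2A, whose products restrain the cell cycle and protect p53, read 362.9 and 312.7 on the HL60 and 8.6 and 22.5 on the THP-1 arrays and was at least 2.98-fold lower in THP-1. This CDKN2A probe set was above background on both HL60 arrays and on neither THP-1 array, and its bearing on the labels was not tested. A second, brighter CDKN2A probe set, open to cross-hybridisation by its name, read 1461.1 and 1595.9 on the HL60 arrays. On the THP-1 arrays it read 162.5 and 374.1, above their backgrounds of 33.23 and 238.63, and its difference of -2.50 was called. MTAP, the neighbour of CDKN2A on chromosome 9, salvages methionine. It read 191.5 and 321.9 on the HL60 and 8.9 and 187.5 on the THP-1 arrays. MTAP was above background on both HL60 arrays and on neither THP-1 array. Its difference of -1.60 ± 0.52 (adjusted p = 0.077) was not called with all arrays and was -2.22 without replicate 2. CDKN2B, on the other side of CDKN2A, read 7.8 and 4.5 on the HL60 and 38.3 and 44.9 on the THP-1 arrays. It was above background on THP-1 replicate 1 only, and its difference of 0.42 was not called with all arrays. The ERK phosphatases DUSP4, DUSP5 and DUSP6 were lower at -1.35, -1.32 and -1.15, and so were BTK, JAK1 and CCND2 at -1.30, -1.69 and -1.99. CCND2 ranged from -1.06 without THP-1 replicate 1 to -2.98 without replicate 2 and lost its call in 13 of 19 alternatives. Leaving out HL60 replicate 1 or replicate 2 ended the calls of HK1, BCAT1, DPYD, MMP14, CASP1, SGK1, ALDOA, ALOX5AP, CCND2, DUSP4, DUSP5, LIPA, PSPH, PTGS1, CS, GSTM4 and HK2 in at least 1 of these fits, where their differences lay between -2.81 and 2.59. Among the enzymes not yet named for it, centring ended the calls of ALOX5AP, BCAT1, CASP1, DPYD, DUSP4, HEXA, LIPA and LTA4H.

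Transporters were called in 29 of 88 genes, 9 higher and 20 lower, or 33%, and without replicate 2 in 12 and 23. Among amino acid and nucleoside carriers, 3 of 21 were higher and 4 lower. SLC38A1 and SLC38A2, sodium-coupled importers of glutamine and small neutral amino acids, read 844.9 and 1055 on the HL60 and 4331.6 and 3243 on the THP-1 arrays for SLC38A1 and 1402.1 and 1475.2 on the HL60 and 6147.6 and 3672.3 on the THP-1 arrays for SLC38A2. Both THP-1 arrays were the brighter ones. The differences were 2.05 ± 0.11 (adjusted p = 1.4e-05) and 1.82 ± 0.12 (adjusted p = 3.0e-05), and centring ended the call of SLC38A2 only. SLC1A4, a neutral amino acid exchanger, read 2553.4 and 2918.9 on the HL60 and 593.7 and 618.4 on the THP-1 arrays, a difference of -2.10 ± 0.14 (adjusted p = 2.8e-05). SLC25A12, a mitochondrial carrier of aspartate and glutamate, differed by -2.36 ± 0.20 (adjusted p = 1.3e-04), and its relative SLC25A13 by -0.60 ± 0.16 (adjusted p = 0.039).

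Of 42 glucose, lactate, ion and metal carriers, 5 were higher and 8 lower. SLC16A7, a monocarboxylate carrier for lactate and pyruvate, read 8 and 4.7 on the HL60 and 385.8 and 600.8 on the THP-1 arrays and was at least 5.06-fold higher in THP-1. SLC30A1, the zinc exporter of the cell surface, read 532.6 and 410.3 on the HL60 and 2488.3 and 1673.9 on the THP-1 arrays, a difference of 2.10 ± 0.14 (adjusted p = 3.3e-05). No HL60 array reached a THP-1 array for either gene. The glucose carriers SLC2A6 and SLC2A3 went opposite ways, at 1.99 and -2.15 (-1.42 without replicate 2 for SLC2A3), and the calcium-activated potassium channel KCNN4 was lower at -2.07. TRPV2 was not called without replicate 2 (adjusted p = 0.082). ABC transporters and lipid carriers had 1 higher and 8 lower of 25. NPC1, which moves cholesterol out of lysosomes, read 1987.8 and 1937 on the HL60 and 264 and 505.8 on the THP-1 arrays, a difference of -2.31 ± 0.19 (adjusted p = 9.5e-05) and -2.63 without replicate 2, and its partner NPC2 was at -1.20. FABP4, a fatty acid carrier of macrophages, was at least 2.09-fold lower, and VLDLR, a lipoprotein receptor, was the 1 higher gene at 1.09. Leaving out HL60 replicate 1 or replicate 2 ended the calls of SLC25A13, SLC2A6, SLC2A3, TRPV2, VLDLR and FABP4 in at least 1 of these fits, where their differences lay between -2.16 and 1.92. Centring also ended the calls of SLC25A13, TRPV2 and VLDLR.

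In the list of genes of other cell types, 1 of 54 was called, or 1.85%. This gene was NKG7, a granule protein of cytotoxic lymphocytes, which read 2832.6 and 3291.8 on the HL60 and 138.1 and 48.2 on the THP-1 arrays, a difference of -4.74 ± 0.45 (adjusted p = 2.2e-04) and -3.99 without replicate 2. The B cell factor PAX5 was not called with all arrays, at -0.69 (adjusted p = 0.059), and was at -0.66 without replicate 2. PPBP, given above with the secreted proteins, is also a megakaryocyte marker, and it was the 1 of 5 such markers that was called. Their summed intensity was 1358.2 and 1045.7 on the HL60 and 263.9 and 1207.4 on the THP-1 arrays. Of the lymphoid markers CD3D, CD3E, CD2 and LCK, none was called, and the summed intensity of the 5 lymphoid markers with NKG7 was 3075 and 3404.2 on the HL60 arrays and 238.7 and 972.5 on the THP-1 arrays. The epithelial list summed to 192.4 to 267.9 on the HL60 arrays and 38.9 and 370.8 on the THP-1 arrays. The part of other cells in these results was not tested.

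The line difference was read a second time on the 4 diclofenac arrays, which share no sample with the DMSO arrays. There, 8.35% of genes were called higher and 7.62% lower in THP-1. Of the 1111 genes higher with DMSO, 1074 had the same sign (96.7%) and 752 were called again (67.7%). Of the 1114 lower genes, 1068 had the same sign (95.9%) and 688 were called again (61.8%). None of either set was called in the opposite direction, whereas 68.2% of all genes had the same sign in both. Both line differences came from 1 fit with a shared spread per probe set, so the second calls were not independent of the first. AZU1 read 1259.8 and 1177.8 on the HL60 and 9234.4 and 9350.6 on the THP-1 diclofenac arrays and HLA-DRA 4.5 and 5.6 on the HL60 and 561.2 and 546.5 on the THP-1 diclofenac arrays, with differences of 2.83 and 3.37. CST7 (-6.44), CLEC2B (-6.24) and HMOX1 (-3.27) were again lower. Some differences called with DMSO were small there, as for CXCL8 (-0.61), SGK1 (-0.25), DPYD (-0.14), CIITA (-0.13) and SPIB (0.13), and none of these 5 was called. CD14 read 3.2 and 28.9 on the HL60 and 332.9 and 310.5 on the THP-1 diclofenac arrays, a difference of 2.45 (adjusted p = 0.0044). By a test of the difference between the treatments, 1 probe set of 22215 passed, or 0.0045%, and 1542 had an unadjusted p under 0.05.

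**Figure D4:**
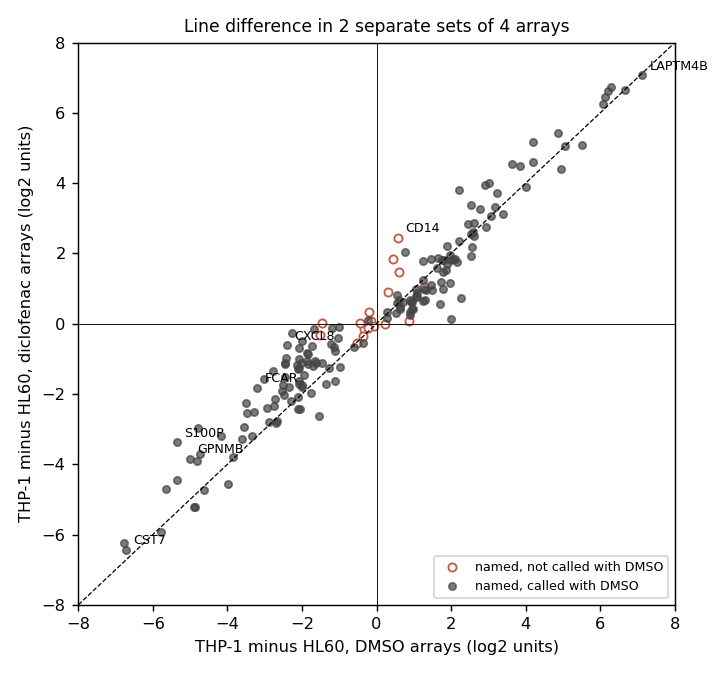
Difference of THP-1 minus HL60 in log2 units with DMSO (x axis) against that with diclofenac (y axis) for the 181 named genes, filled where called with DMSO and open where not. Points follow the dashed line of equal difference, and S100P, FCAR and CXCL8 lie nearer to 0 with diclofenac than with DMSO.

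Position was the last property examined, over 10289 genes that were above background on at least 1 DMSO array and had a chromosome in RefSeq (GRCh38.p14). Of these, 10.7% were called higher and 10.8% lower in THP-1. On the X chromosome 13 of 388 genes were higher and 129 lower (33.2%), with a median difference of -0.43, and on chromosome 15 there were 12 higher and 96 lower of 321 (29.9%), with a median of -0.38. Chromosomes 6 and 12 had the opposite balance, with 107 higher and 37 lower of 564 (19.0% higher) and 93 higher and 29 lower of 579 (16.1% higher). Without replicate 2 the medians were -0.53 for X, -0.35 for chromosome 15, 0.20 for chromosome 6 and 0.13 for chromosome 12. On the diclofenac arrays they were -0.51, -0.34, 0.20 and 0.11.

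**Figure D5:**
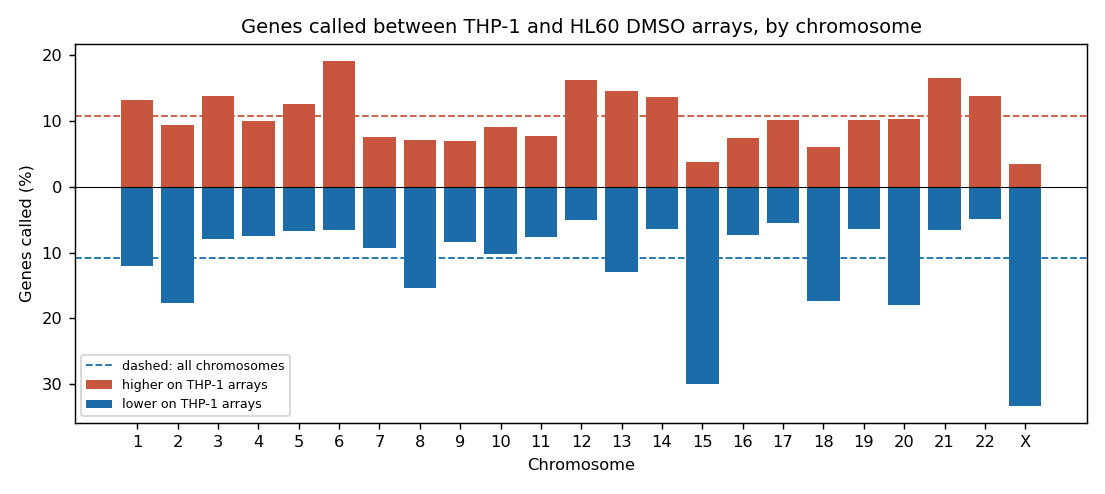
Share of genes above background, in percent, called higher (red, up) or lower (blue, down) on the THP-1 than on the HL60 arrays with DMSO, by chromosome. Dashed lines mark the shares over all chromosomes, 10.7% and 10.8%. The X chromosome and chromosome 15 have the longest bars downward, and chromosome 6 the longest upward.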

How the data were processed

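Gene expression was read from 8 single-colour Affymetrix arrays, 2 for each of 4 groups, of which the 4 DMSO arrays are compared here. The authors deposited 1 linear intensity per probe set and array, per the file headers, and each array had been scaled to the same trimmed mean (500.1 to 500.2 without the highest and lowest 2% of values). The software behind the intensities is not given in the sources used here. Precision is limited by there being 2 arrays per group. From these intensities, log2(intensity + 50) was quantile normalized and fitted with limma 3.58.1 in R 4.3.3, with 1 mean per group over all 8 arrays (4 residual degrees of freedom), an intensity trend in eBayes, and Benjamini-Hochberg adjustment over 22215 probe sets. The 62 Affymetrix control probe sets were left out. GEO's platform annotation gave 1 symbol to 19064 probe sets, several to 1043 and none to 2108, and probe sets with 1 symbol stood for 11963 genes. Each gene took its probe set with the highest mean, and sets marked as cross-hybridising (_x_at) only where no other existed (460 genes). Named genes were the 10 largest called differences per direction in both fits, with and without THP-1 DMSO replicate 2, the 4 largest per direction in each list, and a set of lineage genes. The members and lists were chosen with earlier results of these data known, and list members outside this rule after their values were seen. Same-numbered arrays of the 2 lines did not deviate together (r = -0.067 across probe sets), so the numbers were not taken to pair them. The method was tested on simulated data. Alternatives were other scalings, offsets, filters and spread models, averaging a gene's probe sets, a replicate block and each array left out. Promoter sequences are RefSeq's (GRCh38.p14). Plots used Python 3.11.15 and matplotlib 3.10.9.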

Additional observations from a re-analysis of the deposited data

Results flagged for a closer look

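MTDH, a scaffold protein linked to cell survival signalling, was the 1 probe set whose line difference itself differed between the treatments. It read 3759.2 and 4453.8 on the HL60 and 854.6 and 892.6 on the THP-1 arrays with DMSO, and 2190.8 and 2128 on the HL60 and 1587.9 and 1787 on the THP-1 arrays with diclofenac. The difference of THP-1 minus HL60 was -2.15 log2 units with DMSO and -0.36 with diclofenac. The DMSO difference minus the diclofenac difference was -1.79 (limma interaction, adjusted p = 0.039 over all probe sets, n = 2 arrays per group). The HL60 arrays were the higher ones in both treatments, and the cause was not tested.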

How the results depend on the processing

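The counts of probe sets higher and lower in THP-1, 1680 and 1716, moved by more than 1.5 times under 4 alternatives of the fit. They were 426 and 719 under median centring of each array, 784 and 785 with the 4 DMSO arrays alone, 849 and 976 with array weights, and 221 and 193 against a minimum difference of 1 log2 unit. Array weights were equal within each pair (0.254 for both THP-1 DMSO arrays) and could not favour 1 replicate. Leaving out each array in turn gave 864 to 4714 higher and 837 to 4375 lower; the highest counts came without THP-1 DMSO replicate 1, when replicate 2 stood alone for its line, and the lowest higher count without HL60 DMSO replicate 1. A lone array is assumed to vary like the other groups. With the replicate block the counts were 1495 and 1565, and 2993 of 3396 calls were made again.

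Signs turned for 46 called probe sets under centring and for none under the other alternatives of scale, offset or fit. Among the genes named, the difference turned on the deposited scale for CD34 (0.17) and SPI1 (0.12), under centring for MIF (-0.084), ELANE (-0.049), CEBPA (-0.0018) and MYC (-0.11), and with probe sets averaged per gene for CD93 (-1.67). With 1 array left out, the difference ranged from -0.99 (THP-1 replicate 1 out) to 0.63 (THP-1 replicate 2 out) for SPI1, with 0.067 without HL60 replicate 1, from -1.07 to 0.35 over the same omissions for ITGAX, from -0.034 to 0.94 for KLF4, and from -0.22 (HL60 replicate 1 out) to 0.086 (HL60 replicate 2 out) for CD34. Of these, MIF, ELANE and CD93 were called with all arrays. The cause was not tested. Class counts ranged, over the alternatives, from 7 to 47 higher and 10 to 62 lower for surface receptors, 3 to 26 and 2 to 37 for transcription factors, 7 to 24 and 12 to 38 for granule genes, 8 to 53 and 13 to 87 for enzymes, and 4 to 16 and 4 to 34 for transporters.

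Signal over background limits what dim genes show. THP-1 DMSO replicate 2 had 50.3% of probe sets above its background, against 66.4% to 72.1% on the other arrays, so absence in THP-1 is a bound set mostly by replicate 2.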

Other observations

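Other probe sets of the named genes gave a second reading within the same arrays. For 67 called named genes, 108 further probe sets were above background in at least 1 line, of which 94 had the same sign as the gene's own reading and 55 of these were called. The sign was opposite for 14, and 1 of the 14 was called, that of CD93. Another 18 further probe sets of called named genes were above background in neither line, 9 of them of opposite sign and none of these 9 called by limma at an adjusted p under 0.05. For PLXNC1, read at -2.45 ± 0.29, and for CXCL8, read at -2.41 ± 0.28, a second probe set differed by 1.10 and 0.30. These pairs are given as values, and which of the readings follows the transcript was not tested.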
